A study of Astyanax mexicanus with 12 samples.

Results

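Embryos of the Pachón and Tinaja cavefish, a pair of cave morphs of *Astyanax mexicanus*, were set directly against each other by their miRNA counts. The comparison used the 3 Pachón and 3 Tinaja libraries, 6 of the 12 libraries of the series, and all 683 mature miRNAs of the count table. The remaining libraries, 3 from Molino cavefish and 3 from surface fish, served to place each difference relative to the other morphs. Every library was made from small RNA of wild-type embryos collected at 24 h post fertilization (hpf). All groups shared this stage and tissue (whole embryos), and no group was treated. Pachón, Tinaja, and Molino are named after the caves they come from, and the surface fish live in rivers. How the embryos of a morph were divided among its 3 libraries is not stated in the sources used here. The spread between libraries may therefore be partly or wholly technical, and the p-values measure no more than this spread. In whole embryos, fewer cells of a type and less RNA per cell cannot be told apart.

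miRNAs are short noncoding RNAs cut from hairpin precursors. Loaded into the RNA-induced silencing complex, they pair mostly with sites in the 3′ UTRs of mRNAs and reduce translation or mRNA stability. In fish embryos, as in other vertebrates, single miRNAs can be restricted to one tissue or reach very high levels in it. Pachón and Tinaja fish both have reduced eyes and pigment, and their caves are counted as separate colonization events or parallel lineages.

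The names of the miRNAs are running numbers of the authors' catalog, from 1 to 683 without a gap. Abundance falls as the number increases (Spearman's rho of −0.92 between number and mean count, across miRNAs). They do not link a miRNA to the same number in other species, so no role is given to any of them here. All names carry the prefix astmex-, which is left out from here on. Mature sequences and genomic positions were not analysed here.

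The Pachón libraries held 10035615 to 15279059 counts and the Tinaja libraries 7565642 to 14673376. Molino libraries held 7683993 to 8275406 counts and surface libraries 5539157 to 8537696. Raw counts given below do not allow for these differences in depth. Levels are given in CPM, counts scaled to a fixed library size, with TMM factors that allow for differences in library composition. The detection limit was set at 3 counts, which equals 0.201 to 0.291 CPM in Pachón libraries and 0.218 to 0.349 CPM in Tinaja libraries. It equals 0.378 to 0.392 CPM in Molino libraries and 0.351 to 0.515 CPM in surface libraries. Limits and intervals cover counting error only. Replicates lay close together but spread beyond counting error. For pairs of replicates, chi-square per degree of freedom, which sets their spread against counting error, was 15.3 to 72.5 in Pachón and 47.6 to 641 in Tinaja. In the 497 miRNAs that averaged 10 or more counts in these 6 libraries, log2 levels correlated with r of 0.9963 to 0.9972 within Pachón, 0.993 to 0.9963 within Tinaja, and 0.945 to 0.949 between the morphs, as a description across miRNAs. The coefficient of variation between replicates, over the 253 miRNAs averaging 100 or more counts, had a median of 5.54% in Pachón and 8.79% in Tinaja. Tinaja replicate 3 stood apart from its group. It was the shallowest of the 6 libraries, and miR-2 and miR-3 together made up 17.5% of its counts, against 25.3% and 27.3% in the other Tinaja libraries and 25.1% to 28.4% in the Pachón libraries. The numbers of calls and of departure groups, and the fold changes of miR-2 and miR-3, are given with and without it. Most other values include it.

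Of the 683 miRNAs, 170 were differentially expressed between Pachón and Tinaja (24.9%), that is, they passed an adjusted p of 0.05 in edgeR's quasi-likelihood test (Benjamini−Hochberg adjustment) and differed at least 2-fold. Pachón had the higher level in 97 of them (14.2%) and the lower level in 73 (10.7%). In 2 of the 73, no library of either morph exceeded the detection limit of 3 counts. With Tinaja replicate 3 left out, the test gave 164 miRNAs, 91 higher and 73 lower in Pachón. Only 148 of these were among the 170, so the list changed more than its length. By comparison, 203 miRNAs (29.7%) passed the same thresholds between Pachón and surface fish and 196 (28.7%) between Tinaja and surface fish. Those comparisons share the surface libraries. By the adjusted p alone, 313 miRNAs (45.8%) differed between Pachón and Tinaja, and 143 of these fell short of the fold-change rule. The median log2 fold change over all 683 miRNAs was 0.05, so the calls in both directions were made around a center close to 0.

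The fitted differences were often large. Among the miRNAs higher in Pachón, 41 had a fitted fold change of 2 to under 4, 24 of 4 to under 8, and 32 of 8 or more. Among those lower in Pachón the corresponding numbers were 30, 17, and 26. In 29 of the 97 higher and 19 of the 73 lower miRNAs, every library of the lower morph had at most 3 counts. Fitted sizes are uncertain there. For miR-662, with no count in Tinaja, the fitted fold change was 102, while the lower limit against 3 counts per library was 4.88. In 168 of the 170 miRNAs the Pachón and Tinaja libraries did not overlap in CPM, as was true of 367 of all 683 miRNAs (53.7%). The 2 exceptions were miR-391 and miR-554, singled out after their values were seen. A group of 10 differentially expressed miRNAs had a log2 fold change under 1.1 in size, and 18 more with an adjusted p under 0.05 lay between 0.9 and 1, just short of the rule.

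**Figure D1:**
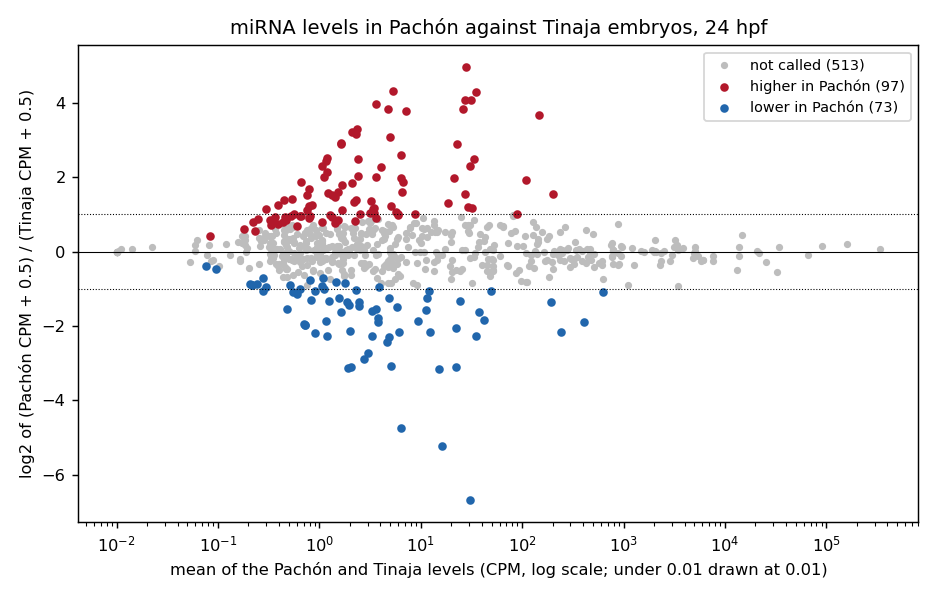
Each point is 1 of 683 miRNAs, with the mean of the Pachón and Tinaja levels on a log scale (CPM) across and the log2 ratio of Pachón to Tinaja upward, computed with 0.5 CPM added to each mean. Red and blue points are the 97 and 73 differentially expressed miRNAs, higher and lower in Pachón, and dotted lines mark a ratio of 2; colored points lie on both sides and thin out toward high levels.

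The differences that passed both thresholds lay mostly in miRNAs of low and middle abundance, while those by the adjusted p alone did not. Of the 138 miRNAs averaging 1000 or more counts in the 6 libraries, 8 were differentially expressed (5.8%). The number was 29 of 115 (25.2%) at means of 100 to under 1000, 86 of 244 (35.2%) at 10 to under 100, and 47 of 186 (25.3%) under 10. By the adjusted p alone, the shares in these bands were 46.4% (64 of 138), 73% (84 of 115), 48.4% (118 of 244), and 25.3% (47 of 186), from the highest means to the lowest. The median difference of the 138 abundant miRNAs was 0.21 on the log2 scale in either direction, against 0.71 for miRNAs with means of 10 to under 100. Counting error is larger at low counts, and its part in this contrast was not separated. Together the 170 miRNAs made up 0.270% ± 0.0135 of the counts of a Pachón library and 0.338% ± 0.0506 of those of a Tinaja library (SD, n = 3 each).

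**Figure D2:**
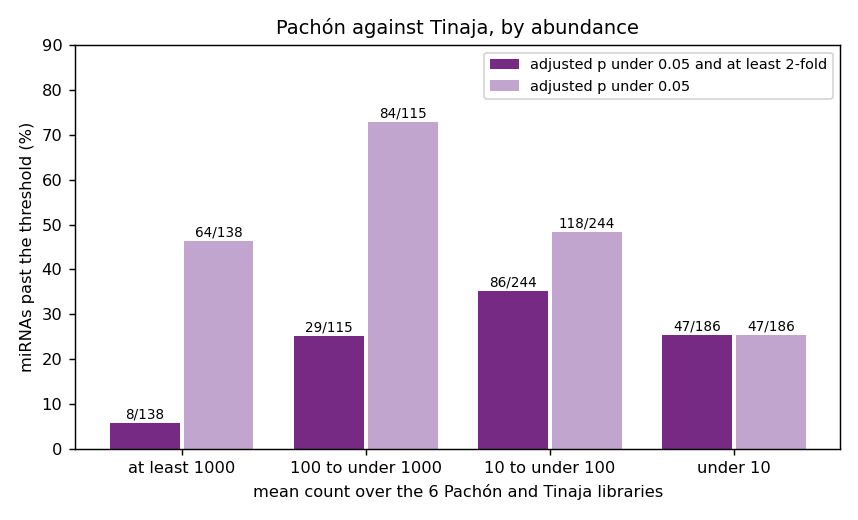
Share of miRNAs (%) past the thresholds between Pachón and Tinaja, by the mean count over the 6 libraries. Dark bars require both the adjusted p and the 2-fold difference, light bars the adjusted p alone, and the fractions give the numbers; the dark bar is lowest at means of at least 1000 counts (8 of 138).

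None of the 20 most abundant miRNAs, each with a mean of at least 60599 counts, passed both thresholds with edgeR or with DESeq2. An unadjusted p under 0.05 was found for 9 of them with edgeR, and an adjusted p under 0.05 for 8 with edgeR and 10 with DESeq2. The most abundant one, miR-1, had 345229, 355584, and 341731 CPM in Pachón and 331630.0, 333517, and 336324 CPM in Tinaja. Its libraries did not overlap between the morphs, but the difference was small (log2 fold change 0.06, standard error 0.07, edgeR adjusted p = 0.551). miR-2 had 184186, 167306, and 155614 CPM in Pachón and 162814, 184457, and 96051 CPM in Tinaja, the lowest value being that of replicate 3. Its log2 fold change of 0.19 (standard error 0.17, edgeR adjusted p = 0.395) became −0.04 without that library. miR-3 followed the same pattern, at 0.16 (edgeR adjusted p = 0.48) with all libraries and −0.06 without Tinaja replicate 3. For both, no direction could be given.

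Which of the morphs stood away from the surface level was read from the calls of Pachón and of Tinaja against surface fish. Of the 170 miRNAs, 56 (32.9%) were called against surface fish in Pachón only. A nearly equal number, 55 (32.4%), were called in Tinaja only. Another 26 (15.3%) were called in both morphs in the same direction but to unequal extents, 8 (4.71%) in both morphs in opposite directions, and 25 (14.7%) in neither. Without Tinaja replicate 3 these numbers were 55, 51, 21, 9, and 28. The last group depended most on the surface libraries and held 43 miRNAs without surface replicate 1. Over all 683 miRNAs, whether or not they differed between Pachón and Tinaja, the numbers were 88, 81, 107, 8, and 399. Both calls that place a miRNA share the surface libraries.

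The direction of the departure completed this division. Of the 97 miRNAs higher in Pachón, 34 were called above surface fish in Pachón only and 28 were called below surface fish in Tinaja only. A morph without a call was not shown to stay at the surface level. A further 18 were called in both in the same direction, 8 of them raised further in Pachón and 10 lowered further in Tinaja. Of the 73 miRNAs lower in Pachón, 22 were called below surface fish in Pachón only and 27 were called above surface fish in Tinaja only. Here 8 were called in both in the same direction, 7 of them raised further in Tinaja and 1 lowered further in Pachón. The mean level of surface fish lay between those of Pachón and Tinaja in 86 of the 170 miRNAs (50.6%) and in 203 of all 683 (29.7%). For the 8 miRNAs with opposite departures the calls themselves fix this position, and for the 25 called in neither morph they nearly do, so neither count is a result.

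**Figure D3:**
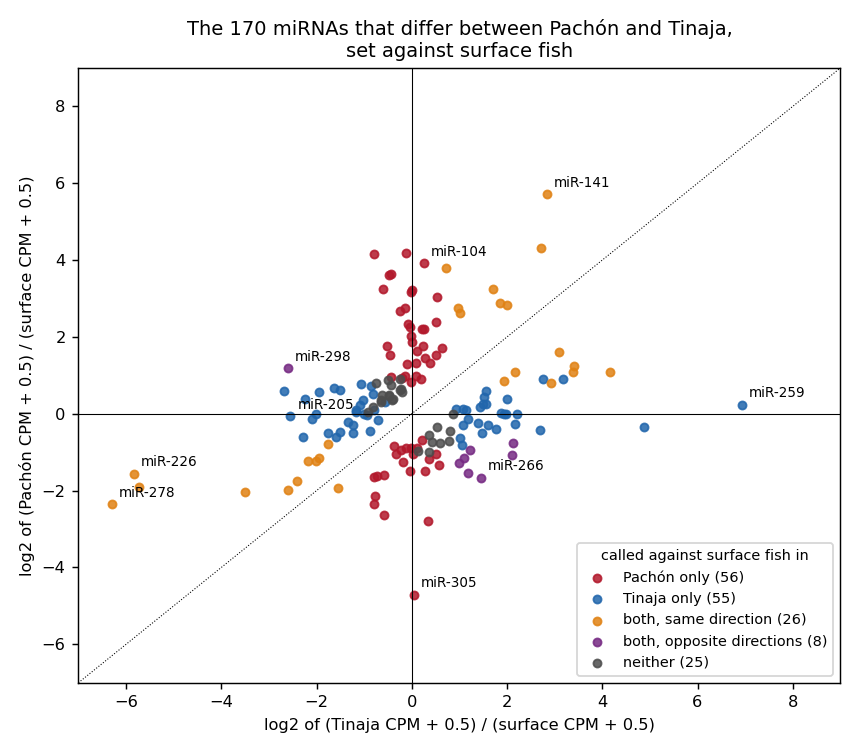
The 170 differentially expressed miRNAs, with the log2 ratio of Tinaja to surface fish across and that of Pachón to surface fish upward (0.5 CPM added to each mean, so the axes share the surface libraries). Colors give the morph called against surface fish, and points above the dotted diagonal are higher in Pachón; 56 miRNAs spread along the vertical axis (Pachón only) and 55 along the horizontal axis (Tinaja only).

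Among the departures of Pachón alone, those with the smallest adjusted p were upward. miR-104, with the smallest adjusted p of the whole comparison, had 259, 286, and 274 CPM in Pachón and 20.1, 19.8, and 23.4 CPM in Tinaja. Surface fish had 16.7, 18.9, and 17.3 CPM and Molino 11.8 to 15.1 CPM, so all Pachón libraries lay far above the other 9. The log2 fold change between Pachón and Tinaja was 3.70 (standard error 0.10, edgeR adjusted p = 1.07e-13). Against surface fish it was 3.95 in Pachón and 0.25 in Tinaja (edgeR adjusted p = 0.0596), short of both thresholds in Tinaja.

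miR-246 and miR-267 shared this shape. miR-246 had 59.7, 50.6, and 53.2 CPM in Pachón against 1.15, 1.24, and 1.40 CPM in Tinaja, a log2 fold change of 5.43 (standard error 0.17, edgeR adjusted p = 4.41e-13). Surface fish had 1.87, 3.56, and 2.23 CPM, so Pachón was above the surface level by 4.43 on the log2 scale. Tinaja was lower than surface fish by a fold change just short of the rule (edgeR adjusted p = 0.00448). Leaving out Pachón replicate 3, Tinaja replicate 3, surface replicate 1, or surface replicate 3 moved this miRNA to the group with opposite departures, as did 3 other settings. miR-267 had 50.6, 51.8, and 52.8 CPM in Pachón and 2.71, 2.47, and 2.56 CPM in Tinaja (log2 fold change 4.32, standard error 0.16, edgeR adjusted p = 2.92e-12). Its levels in surface fish, 2.57, 4.33, and 4.46 CPM, overlapped with those of Tinaja. In Molino both miRNAs were low, at 0.653 to 0.883 CPM for miR-246 and 1.15 to 1.96 CPM for miR-267.

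A similar rise in Pachón was seen for miR-122, but Molino shared it. It had 60.2, 63.4, and 53.8 CPM in Pachón and 2.14, 2.76, and 4.31 CPM in Tinaja, a log2 fold change of 4.31 (standard error 0.19, edgeR adjusted p = 2.94e-11). Surface fish had 4.44, 5.41, and 3.09 CPM, overlapping with Tinaja, and Molino 44.3, 46.3, and 37.4 CPM. Among the abundant miRNAs, miR-217 also rose in Pachón alone of the pair, with 214, 132, and 171 CPM in Pachón and 61.8, 32.6, and 39.9 CPM in Tinaja (log2 fold change 1.94, standard error 0.20, edgeR adjusted p = 5.43e-07). Its level varied between the libraries of both morphs, without overlap. Surface fish had 33.6 to 42.4 CPM of it and Molino 169.5 to 189 CPM.

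Downward departures of Pachón alone included miR-305. No Pachón library had a count of it, whereas Tinaja had 170, 174, and 104 counts, Molino 99, 106, and 90, and surface fish 116, 88, and 61. The mean levels of the other morphs, 12.9 ± 0.965 CPM in Tinaja, 12.6 ± 1.17 CPM in Molino, and 12.5 ± 1.80 CPM in surface fish (SD, n = 3 each), were nearly equal. Against 3 counts per Pachón library, Pachón was at least 51.8-fold lower than Tinaja and at least 50.4-fold lower than surface fish (edgeR adjusted p = 9.81e-11 and 9.47e-11). In Tinaja the log2 fold change relative to surface fish was 0.04 (standard error 0.15).

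miR-225 was lower in Pachón but stayed above the detection limit. Its levels were 8.26, 8.30, and 8.34 CPM in Pachón and 40.1, 36.2, and 31.9 CPM in Tinaja (log2 fold change −2.12, standard error 0.12, edgeR adjusted p = 5.58e-10). Surface fish had 54.5, 58.8, and 49.6 CPM. Tinaja was also under the surface level, by a log2 fold change of −0.59 (edgeR adjusted p = 0.000307) that did not reach the fold-change rule. miR-45, one of the most abundant differentially expressed miRNAs, had 165, 173, and 171 CPM in Pachón and 492, 691, and 736 CPM in Tinaja (log2 fold change −1.91, standard error 0.26, edgeR adjusted p = 1.29e-05). Its surface level varied widely, at 213, 448, and 629 CPM. Which morph departs was therefore not settled for miR-45, and without surface replicate 3 the call moved to Tinaja only.

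Departures of Tinaja alone were seen in both directions as well. miR-205 had 60.8, 51.7, and 58.1 CPM in Pachón and 10.7, 8.94, and 9.43 CPM in Tinaja, a log2 fold change of 2.55 (standard error 0.11, edgeR adjusted p = 3.36e-11). Surface fish had 54.2, 63.6, and 59.9 CPM, a range that includes 2 of the 3 Pachón libraries, so the reduction was in Tinaja. In Molino the same miRNA was at 558, 599, and 476 CPM, far above all other morphs. miR-407 was under the detection limit in Tinaja, with 1 count in 3 libraries, against 56, 82, and 39 counts in Pachón and 26, 19, and 16 in surface fish. Pachón was also above surface fish, by a log2 fold change of 0.69 (edgeR adjusted p = 0.0487) that did not reach the fold-change rule. The ratio of Pachón to Tinaja was 165 (95% exact counting interval 29.2 to 6557, edgeR adjusted p = 4.78e-08).

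miR-259 was found almost exclusively in Tinaja. It had 721, 842, and 526 counts there and 2, 0, and 1 in Pachón, and no library of Molino or surface fish had any. In CPM the Tinaja libraries were at 59.3, 61.2, and 61.2, close to each other. The ratio of Tinaja to Pachón was 747 (95% exact counting interval 255 to 3623, edgeR adjusted p = 5.11e-11), and Tinaja was at least 137-fold higher than surface fish. miR-285 was also high in Tinaja, with low counts in the other morphs. Its counts were 3, 5, and 5 in Pachón and 433, 434, and 242 in Tinaja, and its log2 fold change was −6.45 (standard error 0.43, edgeR adjusted p = 3.97e-09). Surface fish had 2, 10, and 0 counts and Molino 30, 6, and 14. miR-414 had 1 count in Pachón and 45, 47, and 43 counts in Tinaja, a ratio of Tinaja to Pachón of 145 (95% exact counting interval 25.5 to 5759, edgeR adjusted p = 1.35e-06). One surface library had 4 counts of it and the others had none.

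**Figure D4:**
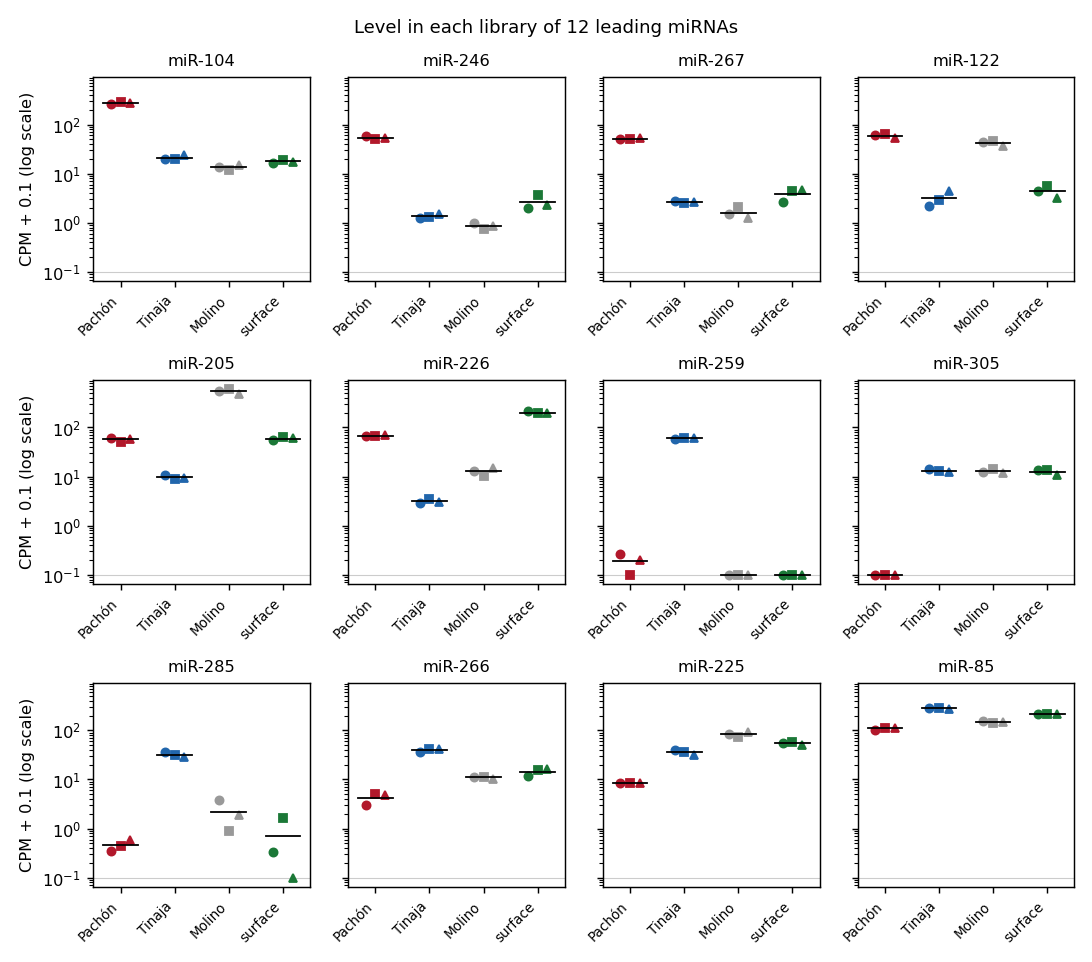
Level of 12 leading miRNAs in each library, as CPM + 0.1 on a log scale, by morph. Circles, squares, and triangles are replicates 1, 2, and 3, black bars the morph means, and the gray line a level of 0; miR-104, miR-246, and miR-267 are high in Pachón alone, miR-259 in Tinaja alone, and miR-305 is at 0 in Pachón alone.

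In the 26 miRNAs called in both morphs in the same direction, the morphs differed in extent. miR-226 had 67.5, 67.6, and 68.7 CPM in Pachón and 2.80, 3.34, and 2.91 CPM in Tinaja, against 212, 195, and 196 CPM in surface fish. Both cave morphs were thus below surface fish, Pachón by a log2 fold change of −1.56 and Tinaja by one of −6.04. The difference between them was 4.48 (standard error 0.13, edgeR adjusted p = 1.4e-13). miR-278 repeated this order at lower levels, with 87, 100, and 79 counts in Pachón, none in any Tinaja library, and 350, 274, and 195 in surface fish. Against 3 counts per Tinaja library, Pachón was at least 26.7-fold higher than Tinaja (edgeR adjusted p = 1.05e-09).

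miR-141 and miR-198 were raised in both morphs and more so in Pachón. miR-141 had 40.3, 42.8, and 38.5 CPM in Pachón and 5.59, 5.38, and 4.19 CPM in Tinaja (log2 fold change 2.98, standard error 0.15, edgeR adjusted p = 1.52e-10), and surface fish had 3, 2, and 1 counts. miR-198 had 289, 311, and 298 CPM in Pachón and 92.9, 97.7, and 113 CPM in Tinaja, with 29.2, 28.0, and 35.4 CPM in surface fish. Its log2 fold change between the cave morphs was 1.57 (standard error 0.09, edgeR adjusted p = 1.11e-09). miR-88 showed the reverse order, with 1114, 1068, and 1031 counts in Pachón and 4136, 5432, and 3907 counts in Tinaja, against 242, 178, and 321 counts in surface fish. Its levels were 88.8 ± 15.2 CPM in Pachón, 397 ± 57.3 CPM in Tinaja, and 37.0 ± 15.7 CPM in surface fish (SD, n = 3 each), without overlap. The log2 fold change of Pachón relative to Tinaja was −2.16 (standard error 0.20, edgeR adjusted p = 1.83e-07).

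All 5 of these miRNAs were also called in Molino in the same direction, which makes them cave-specific in the study's sense. That was true of only 10 of the 26 miRNAs called in both morphs in the same direction. miR-226, miR-141, and miR-278 were named partly because they are cave-specific. The same calls, computed here, gave 43 cave-specific miRNAs, of which 10 (23.3%) differed between Pachón and Tinaja, against 24.9% of all miRNAs. Because these miRNAs were chosen on the same libraries, the share is a description. Of the 26 cave-specific upregulated miRNAs, 3 were higher and 2 lower in Pachón than in Tinaja. Of the 17 downregulated ones, 4 were higher and 1 was lower. The median log2 fold change between Pachón and Tinaja was −0.03 in the upregulated and 0.17 in the downregulated miRNAs, against 0.05 over all miRNAs.

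The 8 miRNAs with opposite departures have, by their calls, surface levels between those of the cave morphs. In 7 of them Pachón was below and Tinaja above surface fish, and only miR-298 had the other order. miR-298 had 16.2, 11.3, and 14.3 CPM in Pachón, 0.822, 0.218, and 0.582 CPM in Tinaja, and 4.68, 6.03, and 6.70 CPM in surface fish (log2 fold change between Pachón and Tinaja 4.69, standard error 0.29, edgeR adjusted p = 1.23e-09). The largest of the other 7 in mean count was miR-266, with 2.89, 5.02, and 4.66 CPM in Pachón, 35.7, 42.5, and 41.5 CPM in Tinaja, and 11.6, 15.5, and 16.0 CPM in surface fish. Its log2 fold change was −3.24 (standard error 0.17, edgeR adjusted p = 1.95e-10), made up of −1.75 for Pachón and 1.49 for Tinaja relative to surface fish. In none of the 3 morphs did the libraries of either miRNA overlap with those of another.

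miR-439 and miR-415 had the same order at low counts. miR-439 had 2, 4, and 4 counts in Pachón and 70, 67, and 44 in Tinaja, against 7, 5, and 5 in surface fish (log2 fold change between Pachón and Tinaja −4.21, standard error 0.29, edgeR adjusted p = 6.4e-09). Its mean levels were 0.275 CPM in Pachón, 5.25 CPM in Tinaja, and 0.817 CPM in surface fish. With counts thinned to the shallowest library, miR-439 became a departure of Tinaja only. miR-415 had 5, 7, and 4 counts in Pachón and 86, 64, and 44 in Tinaja, against 15, 17, and 13 in surface fish (log2 fold change −3.66, standard error 0.34, edgeR adjusted p = 1.8e-07). For miR-560 the counts were 2, 1, and 0 in Pachón and 42, 29, and 11 in Tinaja, against 5, 5, and 6 in surface fish. The ratio of Tinaja to Pachón was 29.3 (95% exact counting interval 9.68 to 145). Without Tinaja replicate 1, or without surface replicate 1, miR-560 no longer passed against surface fish in Tinaja.

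The remaining members of this group, named after their values were seen, were miR-290, miR-268, and miR-436. Their mean levels were 2.61 ± 0.660, 4.12 ± 1.15, and 0.790 ± 0.201 CPM in Pachón and 27.4 ± 4.22, 20.4 ± 1.53, and 5.79 ± 1.05 CPM in Tinaja, in that order (SD, n = 3 each). Surface fish had 6.03 ± 1.99, 8.41 ± 1.63, and 2.64 ± 0.370 CPM. All differed between Pachón and Tinaja in every fit that left out 1 library. Their place in this group was less firm, since miR-290 became a departure of Tinaja only without surface replicate 2, and miR-268 did so without Pachón replicate 2, surface replicate 2, or surface replicate 3.

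**Figure D5:**
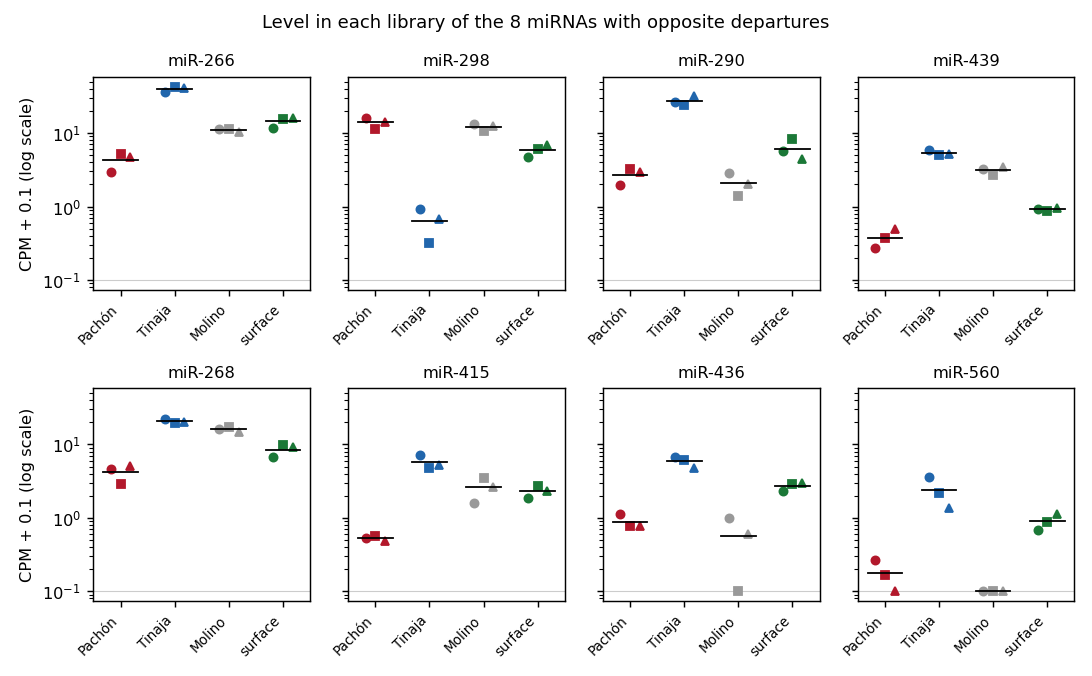
Level in each library of the 8 miRNAs called against surface fish in opposite directions in Pachón and Tinaja, as CPM + 0.1 on a log scale. Circles, squares, and triangles are replicates 1, 2, and 3, black bars the morph means, and the gray line a level of 0; the surface mean lies between those of Pachón and Tinaja in each panel, and miR-298 is the only one higher in Pachón.

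A further 25 miRNAs differed between Pachón and Tinaja but were called against surface fish in neither morph. miR-85 was at 102, 113, and 113 CPM in Pachón and 284, 280.2, and 273 CPM in Tinaja, a log2 fold change of −1.35 (standard error 0.07, edgeR adjusted p = 1.52e-10). Surface fish had 219, 219, and 212 CPM, so most of the distance was in Pachón. Its log2 fold change of −0.99 there (edgeR adjusted p = 5.23e-09) was just under the rule. Pachón passed the rule without Pachón replicate 2 or without Pachón replicate 3. Tinaja was above surface fish by a log2 fold change of 0.36 (edgeR adjusted p = 0.000323), which also fell short of the rule. miR-191, the most abundant differentially expressed miRNA, was close to this pattern, with 379.9, 389, and 427 CPM in Pachón and 816, 910.3, and 822 CPM in Tinaja (log2 fold change −1.09, standard error 0.08, edgeR adjusted p = 1.99e-08). Surface fish had 803, 820.3, and 701 CPM. The Pachón level was lower than this by a log2 fold change of −0.96 and passed the rule without Pachón replicate 3, while that of Tinaja differed by 0.13 (edgeR adjusted p = 0.202).

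miR-261 lay on both sides of surface fish. It had 43.5, 40.3, and 40.2 CPM in Pachón and 13.6, 14.9, and 12.9 CPM in Tinaja, with 22.9, 22.4, and 25.2 CPM in surface fish. The log2 fold change between the cave morphs was 1.58 (standard error 0.12, edgeR adjusted p = 1.27e-08). It was made up of 0.81 in Pachón and −0.76 in Tinaja relative to surface fish (edgeR adjusted p = 1.95e-05 and 6.73e-05). Both passed the adjusted p but not the fold-change rule. Molino had 1 count of it in all 3 libraries together.

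Some miRNAs were present in one morph and at or near 0 in the other. With at least 10 counts in every library of one morph and at most 3 in every library of the other, 14 miRNAs were found in Pachón and not in Tinaja, and 7 in Tinaja and not in Pachón. All 21 were differentially expressed, which such counts make all but certain. This criterion was chosen after the values were seen. The 14 present in Pachón were miR-138, miR-278, miR-304, miR-407, miR-409, miR-453, miR-490, miR-509, miR-514, miR-522, miR-527, miR-547, miR-604, and miR-662. Their counts in Pachón libraries ranged from 13 to 166, and 6 of them had no count in any Tinaja library. The 7 present in Tinaja were miR-259, miR-305, miR-405, miR-414, miR-560, miR-579, and miR-619, with 11 to 842 counts in Tinaja libraries, and 4 of them had no count in Pachón.

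In 8 of the 14 miRNAs present in Pachón, surface fish also had at most 3 counts in every library. Pachón only was called against surface fish in these same 8, which such counts make all but certain. Of the other miRNAs, Tinaja only was called in 5 and both morphs in 1. Those of Pachón only included miR-304, which had 121, 166, and 105 counts in Pachón and 2 counts in all Tinaja libraries together, as well as 2 in all surface libraries together. Its ratio of Pachón to Tinaja was 183 (95% exact counting interval 50.3 to 1515, edgeR adjusted p = 1.11e-09), and Molino had 105, 90, and 80 counts. In 6 of the 14, every library of Molino and surface fish also had at most 3 counts, so these miRNAs were seen at more than 3 counts in Pachón alone. Of these, miR-509 had 49, 58, and 46 counts in Pachón, and miR-662 had 17, 16, and 15. Among the 7 present in Tinaja, 3 were at most at 3 counts in all other morphs, namely miR-259, miR-579, and miR-619. miR-579 had 24, 15, and 20 counts in Tinaja and miR-619 had 16, 18, and 15, and neither had a count in any of the other 9 libraries. At these depths a miRNA at 0 counts is under the detection limit, which does not show that it is absent.

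By the distance between mean levels (log2 of CPM + 0.5), Molino was nearer to Pachón in 88 of the 170 miRNAs and nearer to Tinaja in 82. Over all 683 miRNAs these numbers were 373 and 310. Surface fish were nearer to Pachón in 88 of the 170 and to Tinaja in 82, and over all 683 in 330 and 353. Equal distances were counted toward Tinaja. Over all 683 this included the 13 miRNAs without a count in any Pachón or Tinaja library, which inflates the numbers 310 and 353. In 63 of the 170 miRNAs both Molino and surface fish were nearer to Pachón, in 57 both were nearer to Tinaja, and in 50 they were on different sides. The Molino level lay between those of Pachón and Tinaja in 58 of the 170 miRNAs and in 132 of all 683.

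Most calls held when single libraries were left out. Of the 170 miRNAs, 128 were differentially expressed in the same direction in all 12 fits that left out 1 library, 70 of them higher and 58 lower in Pachón. These had a median mean count of 29.75. The other 42 had a median of 9.25, and 22 of them had a mean under 10 counts. Over the 170 together, the group by departure held less often than the difference itself. In the group called in the same direction this order was reversed. A group counted as kept whether or not the difference between Pachón and Tinaja held in that fit. For example, miR-162 kept its group in all 12 fits but its difference in only 4. In all 12 fits, 39 of the 56 miRNAs called in Pachón only, 35 of the 55 called in Tinaja only, 22 of the 26 called in the same direction, 5 of the 8 called in opposite directions, and 13 of the 25 called in neither kept their group.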

How the data were processed

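Per the labels and the paper, small RNA of 24-hpf embryos was sequenced with 3 libraries per morph. The authors demultiplexed the reads (bcl2fastq 2.20), trimmed them with cutadapt 2.5, removed other structural RNAs, called miRNAs with miRDeep2 from all reads combined on the *A. mexicanus* 2.0 genome, and counted each library on the precursors. Because all reads were combined and placed on 1 genome, a miRNA that differs in sequence between morphs can lose reads. The deposited values are raw counts, and 0 columns of per-sample values were left unused.

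All 12 libraries were fitted together in R 4.3.3 with edgeR 4.0.16 (TMM factors, estimateDisp, glmQLFit, glmQLFTest), with a mean per morph and no low-count filter. The Benjamini−Hochberg adjustment covered all 683 miRNAs. Calls needed an adjusted p below 0.05 together with a 2-fold or larger difference. Standard errors are the log2 fold change divided by the square root of F. The smallest two-sided p that exact permutation of 3 and 3 libraries allows is 0.1, so no such test was used. Where every library of the lower morph was at 0, the fold change is a lower limit against 3 counts per library. Where each had at most 3 counts, the ratio of summed counts is given with an exact binomial 95% interval.

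The libraries and lists were chosen with earlier results of these data known. Named were the 6 miRNAs per direction with the smallest adjusted p (mean of at least 10 counts over the 6 libraries), the 3 per direction with the highest mean count, the 3 per direction with the highest mean count and at most 3 counts in every library of the lower morph, the 4 largest opposite departures, the 2 smallest adjusted p of each departure group, the 3 most abundant miRNAs, and the 3 cave-specific ones with the smallest adjusted p.

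Alternatives were library sizes alone, RLE factors, DESeq2 1.42.0, the exact and the likelihood ratio test of edgeR, a fit of the 6 compared libraries, 3 low-count filters, a replicate block, thinned counts, other call rules, and leaving out each library. Outlying libraries were not tested for in groups of 3.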

Additional observations from a re-analysis of the deposited data

Results flagged for a closer look

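In 8 miRNAs, Pachón and Tinaja were called against surface fish in opposite directions, and the difference between the cave morphs was itself tested by edgeR's quasi-likelihood test in the same fit. The log2 fold change of Pachón relative to Tinaja was 4.69 for miR-298, the one with Pachón above and Tinaja below surface fish. It was −3.24 for miR-266, −3.37 for miR-290, −4.21 for miR-439, −2.33 for miR-268, −3.66 for miR-415, −2.87 for miR-436, and −4.64 for miR-560, all with Pachón below and Tinaja above surface fish. All 8 passed both thresholds between Pachón and Tinaja in each of the 12 fits that left out 1 library. Opposite calls of at least 2-fold each make such a difference all but certain, so it is no separate support. The opposite placement itself held in all 12 fits for 5 of the 8. When each difference was tested against 2-fold (glmTreat), opposite departures were called for only 1 miRNA. For miR-560 the fitted value rests on 3 counts in Pachón, and its size is better read from the interval of the ratio. That of miR-439 rests on 2, 4, and 4 counts in the Pachón libraries.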

How the results depend on the processing

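Requiring 10 or more counts in all 12 libraries left 311 miRNAs for testing, without 127 of the 170. Of those tested, 43 differed between Pachón and Tinaja, 23 higher and 20 lower in Pachón, with 51 called in Pachón and 45 in Tinaja against surface fish. The departure groups then held 16 (Pachón only), 13 (Tinaja only), 3 (same direction), 3 (opposite directions), and 8 (neither). Without the fold-change rule, 313 miRNAs passed, 172 higher and 141 lower in Pachón, with 340 in Pachón and 331 in Tinaja against surface fish, and 91, 86, 79, and 26 in the first 4 groups. Testing against a 2-fold difference (glmTreat) gave 111 in all, 59 higher and 52 lower in Pachón, with 128 in each morph against surface fish. The departure groups then held 39 (Pachón only), 34 (Tinaja only), 11 (same direction), 1 (opposite directions), and 26 (neither). Departures defined by the adjusted p alone gave 50 in Pachón only, 50 in Tinaja only, 36 in the same direction, 18 in opposite directions, and 16 in neither. Counts thinned to the shallowest library gave 17 in the same direction.

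Leaving out 1 library at a time gave 156 to 170 differentially expressed miRNAs, 84 to 101 higher and 66 to 76 lower in Pachón, 193 to 209 for Pachón and 171 to 197 for Tinaja against surface fish, and 51 to 59, 43 to 54, 21 to 27, 7 to 10, and 21 to 43 in the departure groups. DESeq2 called 156 miRNAs, all of them among the 170. None of the 170 changed sign under any of the 24 alternatives that tested it. Their choice for differences of at least 2-fold makes this all but certain, so it is no separate support. The filter of at least 0.5 CPM in 1 library removed no miRNA and gave the same 170. The scaling (TMM, RLE, or library sizes alone) moved the median log2 fold change by less than 0.05. Libraries with the same replicate number in Pachón and Tinaja deviated together only weakly (r of 0.0544 to 0.163 over the 3 numbers), not above 0.1 for every number, so the numbers were not taken to pair the libraries. A library correlated best with its own number in 4 of 6 cases, at most a hint of pairing, from the data and not from the design. The same count was 1 of 6 for Pachón with surface fish and 2 of 6 for Tinaja with surface fish. With a replicate block, 167 miRNAs were called, all among the 170.

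Depth limits the low end. Of the 97 and 73 miRNAs, 29 and 19 had at most 3 counts in every library of the lower morph, and 45 miRNAs with a fold change of at least 2 did not pass the adjusted p, with a median mean count of 3.83.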
